A study of Mus musculus with 18 samples.

Results

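The skeletal muscle miRNAs miR-1, miR-206, miR-133a, miR-133a* and miR-133b were followed across mammary tumours of 18 AKXD recombinant inbred strains. They are 5 of the 583 mature miRNA rows of the deposited matrix, taken by name, and all 5 passed the filter on low values among 281 tested rows. Each library is RNA of mammary tumours from F1 mice, the offspring of an AKXD strain (2, 3, 7, 9, 10, 11, 13, 14, 16, 18, 20, 21, 22, 23, 24, 25, 27 or 28) and FVB/N-TgN(MMTV-PyVT)634Mul. AKXD strains descend from AKR/J and DBA/2J mice. Every library therefore shares 1 transgene, the polyoma virus middle T antigen under the mouse mammary tumour virus promoter, which is active mainly in mammary epithelium, and differs in the AKXD parent. Tumour RNA was pooled by strain, so each strain is 1 library (n = 1) without a replicate check. The labels state neither the age of the mice nor how many tumours entered a pool. SDs below are over the 18 strains and hold strain, pool and library differences together.

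These miRNAs are known from skeletal muscle and, for miR-1 and miR-133a, the heart, where the muscle transcription factors MyoD, myogenin, SRF and MEF2 drive them. miR-1 and miR-206 form a family that promotes myoblast differentiation, and miR-133a and miR-133b form another, which in cultured myoblasts favours proliferation. Each cluster joins a member of either family: miR-1 is made beside miR-133a, and miR-206 beside miR-133b. miR-206 and miR-133b are largely restricted to skeletal muscle, while miR-1 and miR-133a also mark cardiac muscle. miR-133a* is the opposite arm of the miR-133a hairpin and is usually degraded after processing.

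The chromosome 1 cluster is shown first, because miR-206 and miR-133b each have a single locus. How reads that also match their relatives miR-1 and miR-133a were assigned is not stated. In GRCm38, Mir206 (chr1:20679010-20679082) and Mir133b (chr1:20682769-20682887) lie on the plus strand, 3686 bases apart, inside the lincRNA gene Gm28653. Of the 5 members, 2 had a sequence in the RefSeq table (GRCm38.p6). Their mature 3p arms, with the seed (bases 2 to 8) in capitals, follow.
miR-206: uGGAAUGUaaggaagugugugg
miR-133b: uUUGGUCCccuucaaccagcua
Pairing of the seed largely sets the targets of a miRNA, and the seeds of these neighbours differ. The hairpins follow, with the mature arm in capitals.
Mir206: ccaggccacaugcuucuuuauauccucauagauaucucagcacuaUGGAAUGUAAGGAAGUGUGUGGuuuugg
Mir133b: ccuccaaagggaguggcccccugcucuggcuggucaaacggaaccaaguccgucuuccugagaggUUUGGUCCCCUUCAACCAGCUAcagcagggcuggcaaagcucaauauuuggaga
miR-1 and miR-133a each come from a pair of loci. Mir1a-1 (chr2:180389048-180389124) and Mir133a-2 (chr2:180398379-180398482) lie 9254 bases apart on the plus strand of chromosome 2, and Mir1a-2 and Mir133a-1 form the second pair, on another chromosome. The rows do not tell these loci apart. Products of Mir1a-1hg, the lncRNA named as host of Mir1a-1, were not measured separately. The RefSeq window of 300 bases around its start (chr2:180385354-180385653, plus strand) is shown with E-boxes (CANNTG, the class of site bound by MyoD) in capitals.
Mir1a-1hg: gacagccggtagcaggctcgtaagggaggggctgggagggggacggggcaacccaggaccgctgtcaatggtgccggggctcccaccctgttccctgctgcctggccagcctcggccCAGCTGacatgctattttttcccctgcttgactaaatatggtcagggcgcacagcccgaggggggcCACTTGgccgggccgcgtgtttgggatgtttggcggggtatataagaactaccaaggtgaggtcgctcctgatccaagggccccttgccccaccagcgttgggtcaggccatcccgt
The window holds 2 CANNTG, which reads as CANNTG on either strand, and 1 of them is CAGCTG. At least 2 CANNTG are in 39.6% of the 32851 RefSeq windows of this length, and CAGCTG is in 16.3%, so these matches are common and are given as a description.

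The libraries held 4358237 to 14949486 miRNA reads. Levels are in CPM, reads per 1000000 reads of the library, divided by a scaling factor, which was 0.671 for strain 14 and 1.67 for strain 28 at the ends of its range. CPM is therefore not a share of reads, and efficiency of capture differs between miRNAs, so that levels of different miRNAs give no ratio of molecules. Strains 10, 13, 14 and 20 stood apart on the first principal component of all tested miRNAs (scores of -13.03 to -7.04, against -2.53 or more elsewhere), and results that rest on them are given with and without them. The epithelial miRNAs miR-200a, miR-200b, miR-200c, miR-141 and miR-429 were detected in every library. Their summed level lay between 28489.6 CPM (strain 16) and 54672 CPM (strain 25), so markers of epithelium were present, which do not by themselves identify mammary tissue.

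miR-1 was the most abundant muscle miRNA and the second of the 281 tested miRNAs by mean level. Its mean was 97288 ± 68729 CPM (SD, n = 18). It was lowest in strain 9 (21633 CPM), had a median of 83320 CPM and was highest in strain 14 (290760 CPM), with an SD of 1.10 on the log2 scale. In CPM strain 14 was 1.77 times the next strain, strain 13 (164236 CPM). Both had low scaling factors (0.671 and 0.771), which raises CPM. As a share of reads, miR-1 took 19.524% in strain 14 (19.502 to 19.545, 95% Wilson interval) and 2.13% in strain 7 (2.11 to 2.14). By share, strain 24 came after strain 14 (15.64%, 15.62 to 15.66), and strain 13 was 5th (12.66%, 12.65 to 12.68). In CPM, strains 9, 7, 25, 10 and 28 lay lowest, at 36534 CPM or less, and the other 13 lay at 55682 CPM or more. The gap around strain 28 depends on its scaling factor of 1.67: as a share of reads, strain 28 (6.12%, 6.10 to 6.14) lay near strain 3 (6.89%, 6.87 to 6.91), while strain 25, the highest of the other 4, had 2.62% (2.61 to 2.63). In bulk tumour RNA, fewer muscle cells and less of a miRNA per cell cannot be told apart.

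miR-206, the skeletal relative of miR-1, averaged 3139 ± 2706 CPM (SD, n = 18). In CPM it was lowest in strain 28 (742.8 CPM), had a median of 2236 CPM and was highest in strain 14 (11662 CPM), with an SD of 1.14 log2. Strain 14 was 2.02 times the next, strain 20 (5775 CPM), followed by strain 13 (5463 CPM). These libraries are 3 of the 4 that stood apart, and their scaling factors were low, which raises CPM: 0.671 for strain 14, 0.777 for strain 20 and 0.771 for strain 13. The low end also turns with the scaling. As a share of reads miR-206 was lowest in strain 10 (0.0828%, 0.0812 to 0.0845, 95% Wilson interval), and strain 28 (0.124%, 0.121 to 0.127) lay above strains 7, 9, 10 and 25. Scaled by the library total alone, miR-206 had an SD of 0.96 log2. Over the 18 strains the rho of the level with the scaling factor was -0.62 for miR-206, -0.52 for miR-1 and -0.31 for miR-133a*, against 0.03 for miR-133a and 0.10 for miR-133b (a description over libraries that share the scaling).

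miR-133a averaged 289 ± 205 CPM (SD, n = 18) and had the largest spread of the 5, with an SD of 1.37 log2. It was lowest in strain 10 (23.2 CPM from 200 reads), had a median of 245.8 CPM and was highest in strain 24 (713 CPM), followed by strain 16 (648 CPM) and strain 14 (468 CPM). As a share of reads strains 16 and 24 change places. On neither scale did the highest miR-133a come from strain 14, where miR-1 and miR-206 peaked. miR-133b averaged 30.6 ± 20.0 CPM (SD, n = 18). It was lowest in strain 10 (2.67 CPM, 1.69 to 4.01 by an exact 95% Poisson interval, from 23 reads), had a median of 27.6 CPM and was highest in strain 27 (67.2 CPM), with an SD of 1.18 log2. The counting intervals of strains 27 and 16 overlapped, and as a share of reads strain 16 was the higher of them (0.00768%, 0.00708 to 0.00832, against 0.00700%, 0.00659 to 0.00743, in strain 27). miR-133a*, the arm opposite miR-133a, averaged 16.8 ± 10.6 CPM (SD, n = 18). It had 3.42 CPM in strain 7 (from 14 reads), a median of 15.0 CPM and 41.1 CPM in strain 14, with an SD of 0.94 log2. In CPM strain 14 was followed by strain 27 (32.3 CPM) and strain 24 (30.9 CPM). The peak in strain 14 rests on its scaling factor of 0.671, since as a share of reads strain 27 was highest (0.00336%, 0.00308 to 0.00366) and strain 14 came after strain 24 (0.00276%, 0.00249 to 0.00306, in strain 14).

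**Figure D1:**
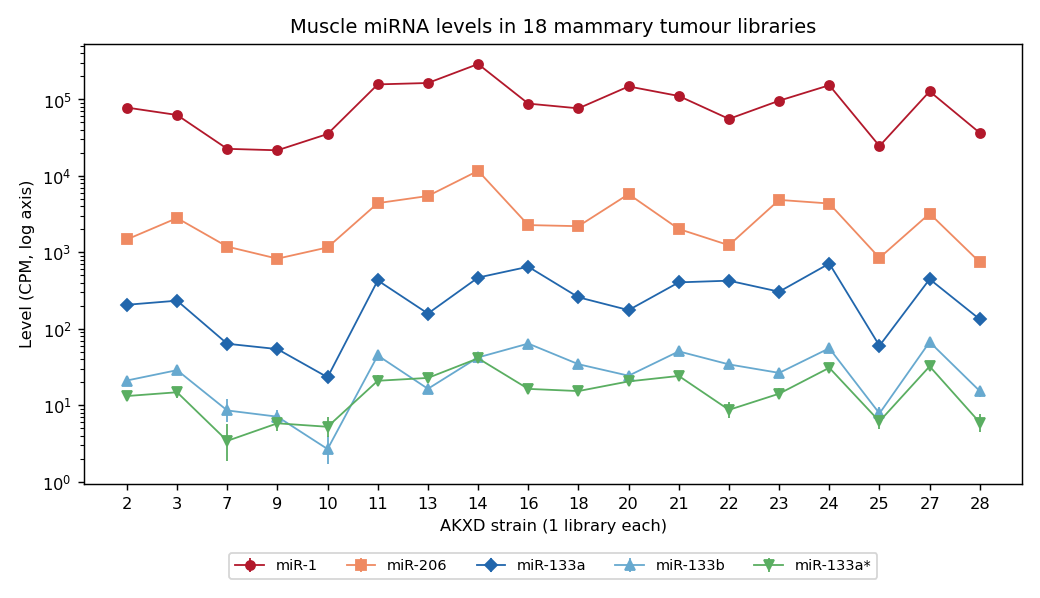
Level of each muscle miRNA (CPM, log axis) in each of the 18 strains (x axis). Points are single libraries, bars are exact 95% Poisson intervals of the reads, and lines only join the points. In CPM all 5 miRNAs are low in strains 7, 9, 10 and 25, and in strain 28, whose scaling factor is 1.67; miR-1 spans 21633 to 290760 CPM.

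The 4 lowest strains by share of reads were the same for every member: 7, 9, 10 and 25. In CPM strain 28 joined them as a shared lowest 5, but by share it ranked above strains 2, 13 and 20 for both miR-133a and miR-133b. Of the 9 highest strains of each member, 5 were shared by all (11, 14, 16, 24 and 27), in CPM and by share. In CPM the members parted in strains 13 and 20, which were 2nd and 5th highest for miR-1 and 3rd and 2nd for miR-206, but 13th and 12th for miR-133a and 13th and 11th for miR-133b. Strain 22 parted the other way, 6th for miR-133a (426 CPM) and 13th for miR-1 (55682 CPM). Neighbours in the order of levels could be told apart by read counting in 17 of 17 cases for miR-1, but the intervals of 4 of 17 neighbouring pairs overlapped for miR-206, 6 for miR-133a, and 14 each for miR-133b and miR-133a*. Read counting gave an SD of 0.13 log2 for miR-133b and 0.16 log2 for miR-133a*, against 0.04 log2 or less for the other members. Among the 281 tested miRNAs, whose median SD was 0.45 log2 (quartiles 0.34 and 0.61), the members ranked 10th (miR-133a), 14th (miR-133b), 15th (miR-206), 17th (miR-1) and 27th (miR-133a*) by SD.

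The clusters were compared by the ratio of their members within each library, which no scaling of libraries changes beyond the pseudocount. SDs of a log2 ratio are those of the difference of log2(CPM + 1). In the cluster of miR-1 with miR-133a, miR-1 exceeded miR-133a 131 times in strain 22, 335 times at the median and 1523 times in strain 10. The log2 ratio had an SD of 0.91. In the cluster of miR-206 with miR-133b, miR-206 exceeded miR-133b 35.5 times in strain 16, 98.1 times at the median and 434 times in strain 10, with an SD of 1.07. Both within-cluster ratios thus ranged over more than a factor of 11 (11.7 and 12.2 from the lowest to the highest strain).

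The ratios between clusters, within a family, had smaller SDs than those of miR-1 to miR-133a and miR-206 to miR-133b. miR-206 was 1.82% of miR-1 in strain 21, 3.08% at the median and 5.26% in strain 7, and its log2 ratio had an SD of 0.46. miR-133b was 7.80% of miR-133a in strain 24, 11.5% at the median and 15.1% in strain 27, with an SD of 0.32, beside 0.13 from read counting. Over all 39340 pairs of tested miRNAs the median SD of the log2 ratio was 0.68 (quartiles 0.52 and 0.94). An SD as small as that of miR-133b to miR-133a was found in 2.39% of pairs, as that of miR-206 to miR-1 in 17.1%, as that of miR-1 to miR-133a in 72.6% and as that of miR-206 to miR-133b in 82.1%. Leaving out any 1 strain gave SDs of 0.78 to 0.93 and 1.01 to 1.10 within the clusters, and of 0.43 to 0.48 and 0.29 to 0.33 within the families. Whether the SDs differ was not tested. miR-133a and miR-133b have closely related sequences, as have miR-1 and miR-206. The sources used here do not say how reads that match both were assigned. The part of shared reads in these ratios was not tested.

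**Figure D2:**
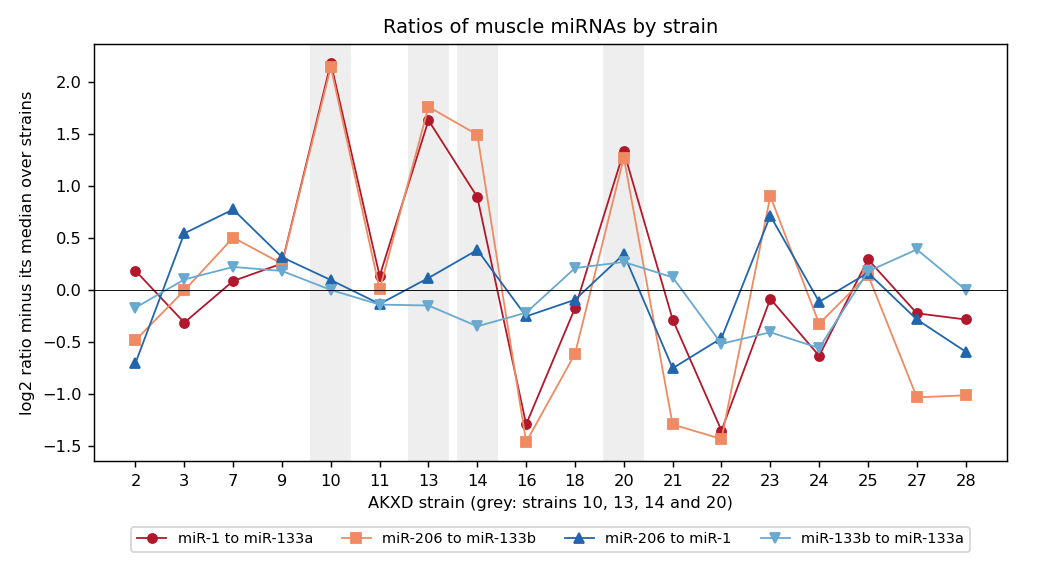
Log2 ratio of members in each strain (x axis), each minus its own median over the 18 strains. Both within-cluster ratios (miR-1 to miR-133a, miR-206 to miR-133b) are highest in strains 10, 13, 14 and 20 (grey) and low in strains 16 and 22, while miR-206 to miR-1 and miR-133b to miR-133a stay within 1 log2 of their medians.

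The ratios of miR-1 to miR-133a and of miR-206 to miR-133b were high in the libraries that stood apart. miR-1 exceeded miR-133a 622 to 1523 times in strains 10, 13, 14 and 20, against 131 to 410 times in the other 14 strains, and the ranges did not overlap. miR-206 exceeded miR-133b 237 to 434 times in these 4 strains, against 35.5 to 183 times in the other 14, again without overlap. The 4 strains were taken because they stood apart over all tested miRNAs, members included. How many other pairs of tested miRNAs have ratios that keep these strains apart was not counted. Whether the separation is particular to the clusters was therefore not tested. The family ratios did overlap: miR-206 was 3.28% to 4.01% of miR-1 in the 4 strains, against 1.82% to 5.26% in the others, and miR-133b was 9.02% to 13.9% of miR-133a, against 7.80% to 15.1%. Without the 4 strains the SD was 0.51 log2 for miR-1 to miR-133a and 0.50 for miR-206 to miR-1, which is about the same size. It was 0.73 for miR-206 to miR-133b and 0.32 for miR-133b to miR-133a. The part of library quality in the 4 strains was not tested.

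The arms of the miR-133a hairpin also varied apart. miR-133a exceeded miR-133a* 4.44 times in strain 10, 16.3 times at the median and 49.0 times in strain 22, and the SD of the log2 ratio was 0.85 (0.67 without strains 10, 13, 14 and 20). It exceeded miR-133a* 4.44 to 11.4 times in the 4 strains, against 9.35 to 49.0 times in the other 14. By contrast, miR-1 to miR-133a*, also a pair within a cluster, ran only from 3730 times in strain 9 to 7539 times in strain 11. Its SD was 0.35 log2 (0.33 without the 4 strains), beside 0.16 from read counting. Of all pairs of tested miRNAs, 4.79% had an SD that small. This within-cluster SD lay below that of the family ratio of miR-206 to miR-1 (0.46).

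**Figure D3:**
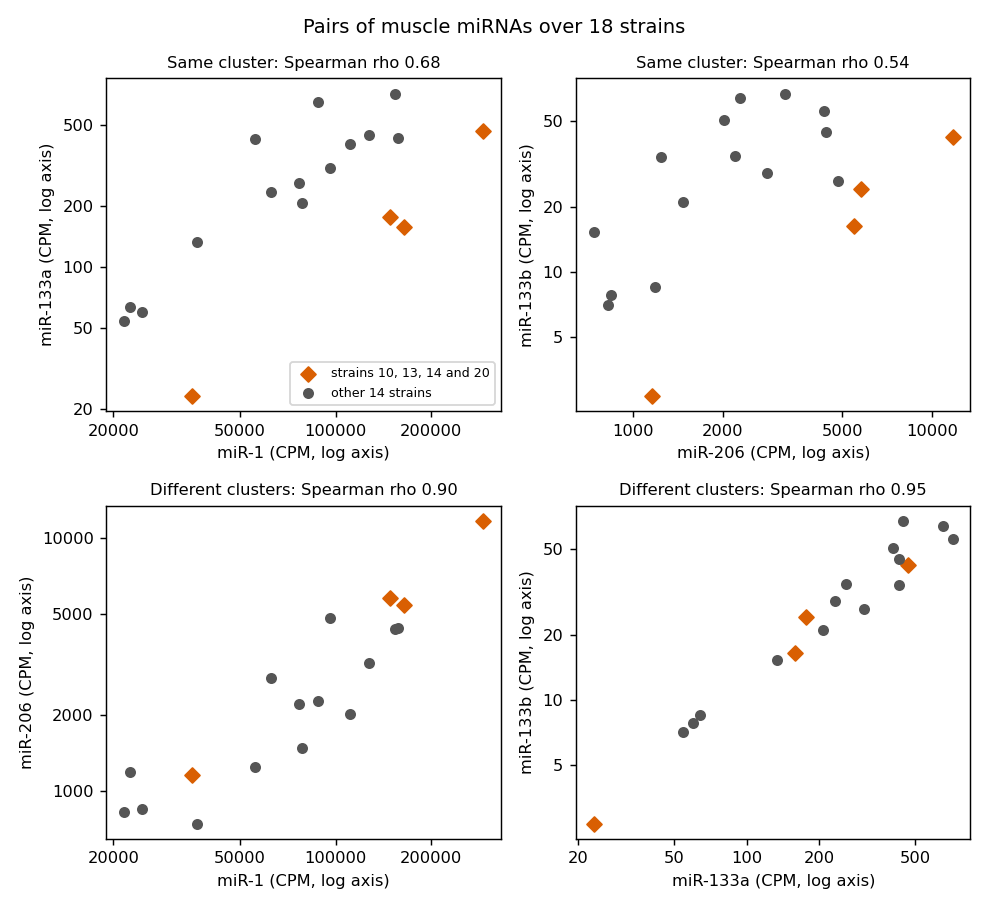
Levels (CPM, both axes log) of 4 pairs of muscle miRNAs, 1 point per strain. Strains 10, 13, 14 and 20 (diamonds) have less miR-133a relative to miR-1, and less miR-133b relative to miR-206, than the other 14 in the panels of the 2 clusters (Spearman rho 0.68 and 0.54), and their ratios overlap those of the others in the panels of different clusters (0.90 and 0.95).

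Each member was then correlated with the other 280 tested miRNAs over the 18 strains, by Spearman rho with a two-sided permutation test and Benjamini-Hochberg adjustment over all 1390 pairs. Positive correlations passed for 3 of the 280 with miR-1 (1.07%), 4 with miR-133a (1.43%), 5 with miR-133a* (1.79%), 2 with miR-206 (0.714%) and 2 with miR-133b (0.714%). At an unadjusted p under 0.05 these were 15 (5.36%), 24 (8.57%), 13 (4.64%), 19 (6.79%) and 22 (7.86%). No negative correlation passed (59 of the 1390 pairs at an unadjusted permutation p under 0.05; 2 passed by Pearson r). The median rho over the 280 lay between -0.05 and 0.03 for each member.

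By this measure each guide strand was closest to its family relative in the other cluster or to miR-133a*. The part of reads that match both relatives of a family in these correlations was not tested. For miR-133a and miR-133b, each was first among the other's 280 partners, with rho = 0.95 and Pearson r = 0.98 (both permutation p = 1e-05, the smallest they can give; adjusted p = 0.00463 for rho). Pearson r was 0.96 without strains 9 and 10, which lie farthest from the median of miR-133a. For miR-1 and miR-206, rho was 0.90 and r 0.92 (both permutation p = 1e-05; adjusted p = 0.00463 for rho). Pearson r was 0.92 once strains 7 and 9, at the extremes of miR-1, were left out. miR-1 was first among the partners of miR-206, and miR-206 second among those of miR-1. miR-133a* was the first partner of miR-1, with rho = 0.91 and r = 0.95 (both permutation p = 1e-05; adjusted p = 0.00463 for rho; r = 0.94 without strains 7 and 9). With strains 10, 13, 14, 20 and 28 left out, the calls of miR-1 with miR-206 (adjusted permutation p = 0.237) and with miR-133a* (adjusted permutation p = 0.107) were lost, while that of miR-133a with miR-133b was kept.

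The correlations of miR-1 with miR-133a and of miR-206 with miR-133b, within the clusters, did not pass. miR-133a*, from the hairpin of miR-133a and so of the same cluster as miR-1, did pass with miR-1, as given above. miR-1 with miR-133a had rho = 0.68 (permutation p = 0.0024, adjusted p = 0.136) and r = 0.75, or 0.66 without strains 7 and 9, and miR-133a was 5th among the partners of miR-1. miR-206 with miR-133b had rho = 0.54 (permutation p = 0.0225, adjusted p = 0.359) and r = 0.57, or 0.58 without strains 14 and 28, and miR-133b was 12th among the partners of miR-206. Without strains 10, 13, 14 and 20 the rho of miR-1 with miR-133a was 0.87 and passed (adjusted p = 0.0420), that of miR-1 with miR-206 was 0.80 and did not (adjusted p = 0.101), and that of miR-206 with miR-133b was 0.63. miR-133a with miR-133b kept 0.96 there. The order of miR-133a and miR-206 as partners of miR-1 thus turned without these libraries. It did not turn with strain 28 left out as well (0.78 with miR-133a, 0.83 with miR-206). Whether any pair of correlations differs was not tested.

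The other pairs of members involved both clusters or the hairpin arm. miR-133a with its own opposite arm had rho = 0.77 (adjusted p = 0.0459), which was lost on leaving out any of 14 strains (lowest rho 0.67 and highest adjusted p 0.172). miR-133a* passed with miR-133b (rho = 0.80, adjusted p = 0.0347; lost without any of strains 9, 14, 18, 24, 25, 27 or 28, highest adjusted p 0.113) and with miR-206 (rho = 0.79, adjusted p = 0.0347; lost without any of 11 strains, highest adjusted p 0.125). miR-1 with miR-133b (rho = 0.65, adjusted p = 0.188) and miR-133a with miR-206 (rho = 0.59, adjusted p = 0.258) did not pass. All 10 correlations between members were positive.

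**Figure D4:**
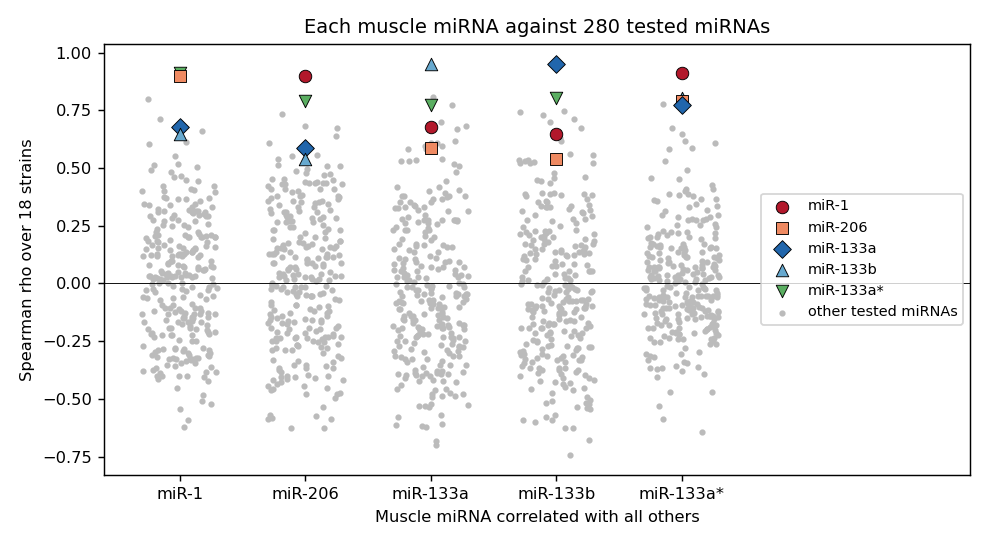
Spearman rho over 18 strains (y axis) of each muscle miRNA (x axis) with the other 280 tested miRNAs. Coloured symbols are the other members and grey points are the remaining miRNAs. miR-133a and miR-133b are each other's highest point at 0.95, and miR-1 is the highest for miR-206 at 0.90.

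Outside the 5 members, only miR-486, miR-365 and miR-378* passed with any of them. miR-486, which lies in the muscle and erythroid gene Ank1 and is raised by MRTF in muscle, was at 126 ± 62.3 CPM (SD, n = 18), with 36.3 CPM at the low end (strain 9) and 311 CPM at the high end (strain 14). It passed with miR-1 (rho = 0.80, adjusted p = 0.0347) and with miR-133a* (rho = 0.78, adjusted p = 0.0347), and had rho of 0.74 with miR-206, 0.70 with miR-133a and 0.67 with miR-133b. With miR-1 its rho was 0.85 without strains 10, 13, 14 and 20, and 0.80 with strain 28 left out as well. The erythroid miRNAs miR-451 (rho = 0.48 with miR-1) and miR-144 (rho = 0.55) did not pass, and the part of red cells in miR-486 was not tested. miR-365 passed with miR-133a (rho = 0.81, adjusted p = 0.0347) and had rho of 0.75 with miR-133b and 0.36 with miR-1; its level ranged between 8.71 CPM (strain 10) and 91.4 CPM (strain 22, the strain with the lowest ratio of miR-1 to miR-133a). miR-378*, the opposite arm of miR-378 from the Ppargc1b gene of energy metabolism, passed with miR-133a (rho = 0.77, adjusted p = 0.0417). With strains 10, 13, 14, 20 and 28 left out, miR-1 and miR-133a* had 0 partners past the threshold and miR-133a had 1, which was miR-133b, so the calls of miR-486, miR-365 and miR-378* were lost. Over these 13 strains the rho with miR-133a was 0.79 for miR-365 and 0.59 for miR-378*, and the rho of miR-486 with miR-133a* was 0.68. Scaled by the library total only, the calls of miR-486, miR-365 and miR-378* were lost as well. There miR-1 had 2 partners past the threshold and miR-133a and miR-133a* had 1 each, all of them members. The call of miR-486 with miR-1 was also lost without the filter on low values, and on leaving out single strains such as 9 or 14.

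The 4th partner of both miR-1 and miR-206 was miR-378, with rho of 0.71 and 0.68 (adjusted permutation p = 0.0999 and 0.136). The level of miR-378 ranged between 14407.5 CPM (strain 7) and 126561 CPM (strain 14). miR-7a* (rho = 0.67) was the 5th partner of miR-206. For miR-133b the 4th and 5th were miR-378* (rho = 0.74) and the neural and muscle miRNA miR-128 (rho = 0.73, adjusted p = 0.0853). The lowest correlations were those of miR-182 with miR-133b (rho = -0.74, adjusted p = 0.0684) and of miR-330 with miR-133a (rho = -0.70, adjusted p = 0.120). Arms of the miR-183 cluster, known from sensory cells, were also at this end, with miR-183 at -0.68 for miR-133b, miR-182 at -0.68 for miR-133a, miR-183* at -0.62 for miR-206, and miR-96 at -0.59 and miR-183* at -0.55 for miR-1. miR-330 was at -0.63 for miR-133b. miR-141* (-0.62 with miR-1, -0.53 with miR-133a*), miR-27b (-0.62 with miR-133a), miR-21* (-0.62 with miR-206), miR-24-2* (-0.59 with miR-206), miR-450b-5p (-0.64 with miR-133a*) and miR-542-3p (-0.59 with miR-133a*) completed the lowest 3 of each member. None of these negative values passed.

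Lists of miRNAs of muscle biology and of other cell types gave few calls. Of 18 miRNAs studied in cultured myoblasts, 0 passed with any member, and their median rho with miR-1 was -0.13, against 0.03 over all 280; the most abundant, miR-148a (52524 ± 12243 CPM), had rho = 0.05 with miR-1. Of 6 miRNAs of adipose tissue and brown fat, miR-365 and miR-378* passed with miR-133a and 0 with the other members, and the median rho was 0.53 with miR-133a and 0.58 with miR-133b, against -0.05 and -0.04 over all 280. Some miRNAs are on several lists: miR-378 here and among those of myoblasts, miR-155, miR-214 and miR-486 elsewhere. miR-193b, which is made beside miR-365, had rho of 0.67 with miR-133a and 0.71 with miR-133b. Among 3 erythroid miRNAs miR-486 alone passed, as given above, and the most abundant, miR-451, was at 308 ± 118 CPM. With any member, 0 passed of 2 smooth muscle, 1 liver, 5 leukocyte, 2 endothelial, 2 mesenchymal, 2 basal epithelial, 3 neural and 5 mammary epithelial miRNAs tested. The most abundant of each had, with miR-1, rho of 0.22 (miR-143), 0.13 (miR-122), 0.08 (miR-142-3p), 0.50 (miR-126-3p), 0.25 (miR-199a-3p), -0.05 (miR-203), -0.31 (miR-9) and 0.17 (miR-200c). Members of a list did not always go the same way: with miR-1, miR-145 had -0.28 on the smooth muscle list, miR-128 had 0.31 on the neural list and miR-200a had -0.41 on the mammary epithelial list. The mammary epithelial median was -0.33 with miR-133a and -0.38 with miR-133b, with 0 of 5 above 0 for either, against -0.09 with miR-1 and 0.03 with miR-206. Leukocyte miRNAs had a median rho of 0.60 with miR-133a and 0.53 with miR-133b, against 0.30 with miR-1 and 0.22 with miR-206. Over all 280 the medians were -0.05 with miR-133a, -0.04 with miR-133b, 0.03 with miR-1 and 0.03 with miR-206. None of the epithelial or leukocyte rows passed, and whether their medians differ between members was not tested. The summed level of the leukocyte miRNAs was highest in strain 27 (18237 CPM). In strain 14, which was highest in CPM for miR-1, miR-206 and miR-133a*, the summed CPM of the smooth muscle (60021 CPM), adipose (126746 CPM, of which miR-378 gave 126561 CPM), liver (375 CPM), erythroid (808 CPM) and endothelial (22293 CPM) lists were also highest of the 18. Its scaling factor was the lowest, which raises CPM, and these sums were not ranked by share of reads. Single rows did not all peak there: miR-451, miR-144 and miR-126-5p were highest in strain 27 and miR-145 in strain 28. The part of these lists in the muscle levels of strain 14 was not tested.

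Rows of other striated muscle miRNAs were nearly empty. miR-499, from the myosin gene Myh7b, had 109 reads in all, with 36 reads in strain 27 (25.2 to 49.8, exact 95% Poisson interval), 20 reads in strain 3 (12.2 to 30.9), 10 in strain 20 and 8 or fewer in the other 15, of which strains 7, 10 and 22 had 0. miR-208b, from Myh7, the myosin of slow skeletal fibres and the heart, had 30 reads, with 13 in strain 27 and 4 or fewer elsewhere, and 0 in 11 libraries. In strain 14, with the highest miR-1, miR-499 had 2 reads and miR-208b 1. miR-1-2-as, a row named for the strand opposite Mir1a-2, had 20 reads in all and 3 at most, and without knowledge of how strand was counted it cannot be told apart from Mir1a-2. Among the libraries with a count of 0, a floor of 3 reads allows 0.226 CPM in strain 9 to 0.732 CPM in strain 7, leaving aside strain 25, where a 0 can be a single read. The two-sided interval drawn in the plot reaches 3.69 reads at a count of 0. Of the 12 names on this list, 4 had a row, and miR-486 alone reached the filter.

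**Figure D5:**
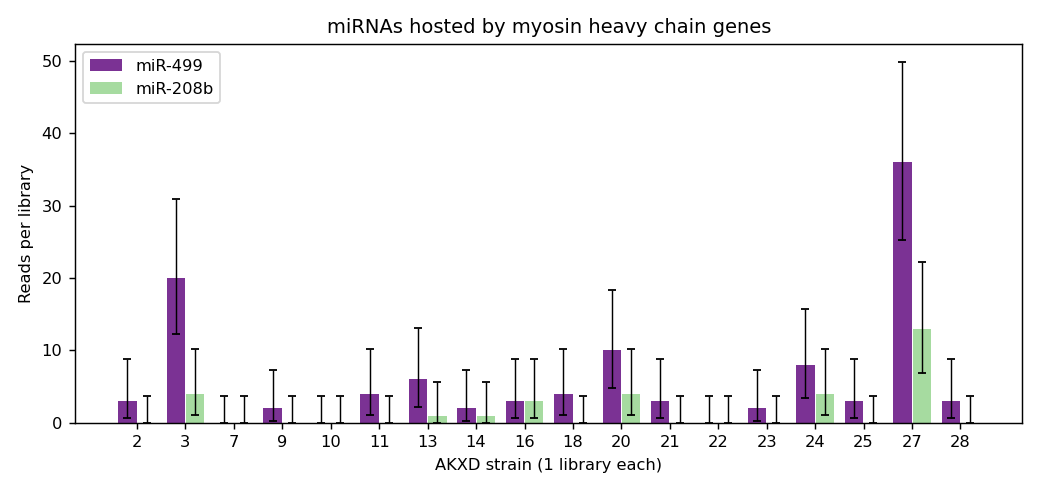
Reads per library (y axis, from 0) of miR-499 and miR-208b in each strain (x axis), with exact 95% Poisson intervals. miR-499 has 36 reads in strain 27 and 20 in strain 3, and miR-208b 13 in strain 27.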

How the data were processed

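The authors' deposited matrix gives log2 values to 2 decimals for 583 mature miRNAs in 18 columns, which the sample descriptions tie to strains. Per the submitters' processing notes BWA and mm9 were used, with no role or version; sources used here do not name the counter, annotation or filters. Per the labels, tumours were snap-frozen and RNA was isolated with the mirVana kit. Deposited values are log2 of reads multiplied by a library constant (0.999 to 1.39): all 3818 of 3818 values of up to 50 reads came out whole within 0.006 log2. Absent rows are listed at 0, and so is a single read in strain 25. Reads were recovered with these constants, and rows with identical values counted once (571 rows). Scaling used the trimmed mean of M-values method (trims of 30% and 5%). The 281 rows averaging 10 CPM or more were tested on log2(CPM + 1), which understates differences of low miRNAs.

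Correlations used 100000 permutations, and the call threshold was an adjusted p of 0.05. Levels at n = 1 were not tested between strains. Poisson and Wilson intervals and floors cover counting error alone, as PCR duplicates were not identified. The correlation script was tested on simulated data. Members, lists and tests were chosen with earlier results of these data known. Named partners are the 5 highest and 3 lowest rho of each member, all measured rows of the striated muscle list and the most abundant row of each other list; miR-144, miR-193b and the strains singled out were named after their values were seen. Gene positions came from GENCODE by name (GRCm38) and sequences from RefSeq (GRCm38.p6); the matrix has no coordinates. Alternatives were 3 other scalings, members left out of the scaling, pseudocounts of 0.1 and 10 CPM, no filter or 100 CPM, identical rows kept, strains left out, Pearson r, adjustment within each member, ratios without pseudocount and the deposited values as they are. Python 3.11.15, numpy 2.4.6, pandas 2.3.3, scipy 1.17.1 and matplotlib 3.10.9 were used.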

Additional observations from a re-analysis of the deposited data

How the results depend on the processing

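No paired analysis was possible because each strain has 1 library. Over 15 alternatives and the omission of single strains, none of the 10 correlations between members among the 30 results recomputed changed sign. The other results are counts, SDs and mean levels, which were not assessed for direction. Where a call or value moved and no construction explains it, the cause was not tested. Counts are of miRNAs positively correlated past the threshold, and p is the adjusted permutation p. Members left out of the scaling, a pseudocount of 0.1 CPM and ratios without pseudocount shifted values but moved no result past the limits used. Those limits were the SD over strains for a mean, an error from leaving out single strains for an SD, and a set ratio for a count. For a correlation the call had to change. At 0.1 CPM, for example, the SD of miR-133b was 1.26, against 1.18. With the library total only, miR-1 had 2 partners and miR-133a, miR-133a*, miR-206 and miR-133b had 1 each, all of them members. The correlation of miR-133a* was then 0.77 with miR-133a (p = 0.0697), 0.73 with miR-206 (p = 0.103) and 0.79 with miR-133b (p = 0.0502), and the SD of miR-206 was 0.96. miR-133a had 2 partners, and its correlation with miR-133a* did not pass, with median-of-ratios factors (0.74), upper-quartile factors (0.76) and identical rows kept (0.73); the last also gave 1 negative pair. With a pseudocount of 10 CPM the SD was 0.55 for miR-133b to miR-133a, 0.57 for miR-133a* and 0.78 for miR-133b. Without a filter, which adds tests, miR-1 and miR-133a had 2 partners and miR-133a* and miR-206 had 1. The rho of miR-133a* with miR-133a, miR-206 and miR-133b was unchanged there, at 0.77, 0.79 and 0.80 (p = 0.0669, 0.0568 and 0.0568). At 100 CPM, where miR-133b and miR-133a* drop out and give no value, miR-133a had 0 partners and miR-206 had 1. Without strains 10, 13, 14 and 20, miR-133a* had 3 partners and miR-206 had 0; miR-1 correlated with miR-133a at 0.87 and with miR-133b at 0.84, past the threshold, while miR-206 correlated with miR-1 at 0.80 and with miR-133a* at 0.74, not past it. The SDs there were 0.51 (miR-1 to miR-133a), 0.73 (miR-206 to miR-133b) and 0.93 (miR-206). Without strain 28 as well (13 strains), miR-1, miR-133a* and miR-206 had 0 partners and miR-133a and miR-133b had 1, the correlations of miR-133a* were 0.88 with miR-1, 0.76 with miR-133a, 0.70 with miR-206 and 0.88 with miR-133b, that of miR-1 with miR-206 was 0.83, and none of these passed; the SDs were 0.54, 0.73 and 0.87. Pearson r gave 6 partners for miR-1, 4 for miR-206 and 5 for miR-133b, 2 negative pairs (miR-330 with miR-133a, miR-182 with miR-133b), and passed miR-1 with miR-133a (0.75) and with miR-133b (0.74). Adjustment within each member gave miR-133b 5 partners and 1 negative pair in all. The deposited values, which hold no scaling for depth, gave 2 partners for miR-133a, 4 for miR-206 and 1 for miR-133b, a correlation of miR-133a* of 0.64 with miR-133a and 0.71 with miR-133b, neither passing, an SD of 1.19 for miR-133a*, and means of 19.645 (miR-1), 11.13 (miR-133a), 7.19 (miR-133a*), 14.62 (miR-206) and 7.96 (miR-133b) log2. Leaving out 1 strain at a time gave 2 to 3 partners for miR-1, 1 to 5 for miR-133a and for miR-133a*, 1 to 3 for miR-206, 1 to 4 for miR-133b and 0 to 1 negative pairs. The correlations of miR-133a* then ran from 0.67 to 0.83 with miR-133a, 0.75 to 0.84 with miR-206 and 0.74 to 0.87 with miR-133b, with calls lost in 14, 11 and 7 omissions, while miR-1 with miR-206 (0.86 to 0.92), miR-1 with miR-133a* (0.88 to 0.93) and miR-133a with miR-133b (0.93 to 0.96) passed in all 18. Depth limits the order of strains for miR-133b and miR-133a* most, and that of miR-499 and miR-208b throughout.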
